A study of Mus musculus with 4 samples.

Results

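The transcripts of the Polycomb repressive complexes were examined in LSK cells, the fraction of mouse bone marrow that lacks lineage markers, carries c-Kit and Sca1, and contains the blood stem cells with their earliest progeny. The members were taken from a list of 33 genes by keeping each probe set that the array annotation assigns to 1 gene only. This gave 84 probe sets for 32 genes, out of 45037 probe sets and 18193 genes measured. Rybp, which encodes an adaptor of the variant form of complex 1, was left out because its 2 probe sets are also annotated to a pseudogene.

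The cells came from femoral marrow of mice labelled WT B6/129 and were split at sorting by their c-Myc-eGFP, a fusion of c-Myc with a green fluorescent protein, into a bright group (Hi) and a faint group (Lo) of 2 arrays each. The allele that encodes the fusion protein is not described in the labels, and both groups made the protein to be sorted by it. No drug or deletion separates the groups, and neither the age of the mice nor the number pooled per array is stated in the labels. The labels do not say that replicates were separate mice or sorts, so the p-values measure only the spread between these arrays. A mixture of cells was measured, so more cells with a transcript and more transcript per cell cannot be told apart.

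Polycomb proteins keep genes silent through 2 kinds of complex. Polycomb repressive complex 2 (PRC2) methylates a lysine on the tail of histone H3, by means of the catalytic subunit Ezh2 or its paralogue Ezh1. Polycomb repressive complex 1 (PRC1) ubiquitinates histone H2A through the ligases Ring1 and Rnf2, each paired with a Pcgf protein. In canonical PRC1 a Cbx protein reads the PRC2 mark and a Phc protein joins complexes together, whereas variant PRC1 carries Rybp or Yaf2 in their place. The PR-DUB complex, made of the deubiquitinase Bap1 and an Asxl protein, removes the ubiquitin. In blood, Bmi1 is known for its part in the self-renewal of stem cells.

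All values below are log2 intensities, and a difference is Hi minus Lo on that scale with the moderated standard error (SE) of a limma fit over all probe sets. A gene is described by its brightest probe set unless another is named. Levels of different probe sets cannot be ranked, because each binds with its own strength. A probe set is called dim where it is at or under the brightest control for a bacterial transcript on an array, between 4.74 and 4.87.

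No member passed an adjusted p of 0.05 in that fit, and neither did any of the 45037 probe sets (0% called in each direction). The smallest adjusted p by limma was 0.0906 among the members and 0.0839 over all probe sets. Before adjustment 3 of the 32 member genes were higher and 3 lower in Hi at a limma p under 0.05. Over all genes 9.25% were higher and 11% lower by the same rule, in either direction 20.2% against 18.8% of the members. The share was near the background, so the count says nothing particular about Polycomb genes. The 3 higher genes were Ezh2, Phf19 and Pcgf6, and the 3 lower ones were Ezh1, Phf1 and Phc3. No such count is read from fits with an array left out, since no share over all genes was counted there. Of the 84 probe sets, 10 were higher and 7 lower at an unadjusted limma p under 0.05 (20.2% in either direction), against 9.05% and 8.91% of all probe sets (18%).

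**Figure D1:**
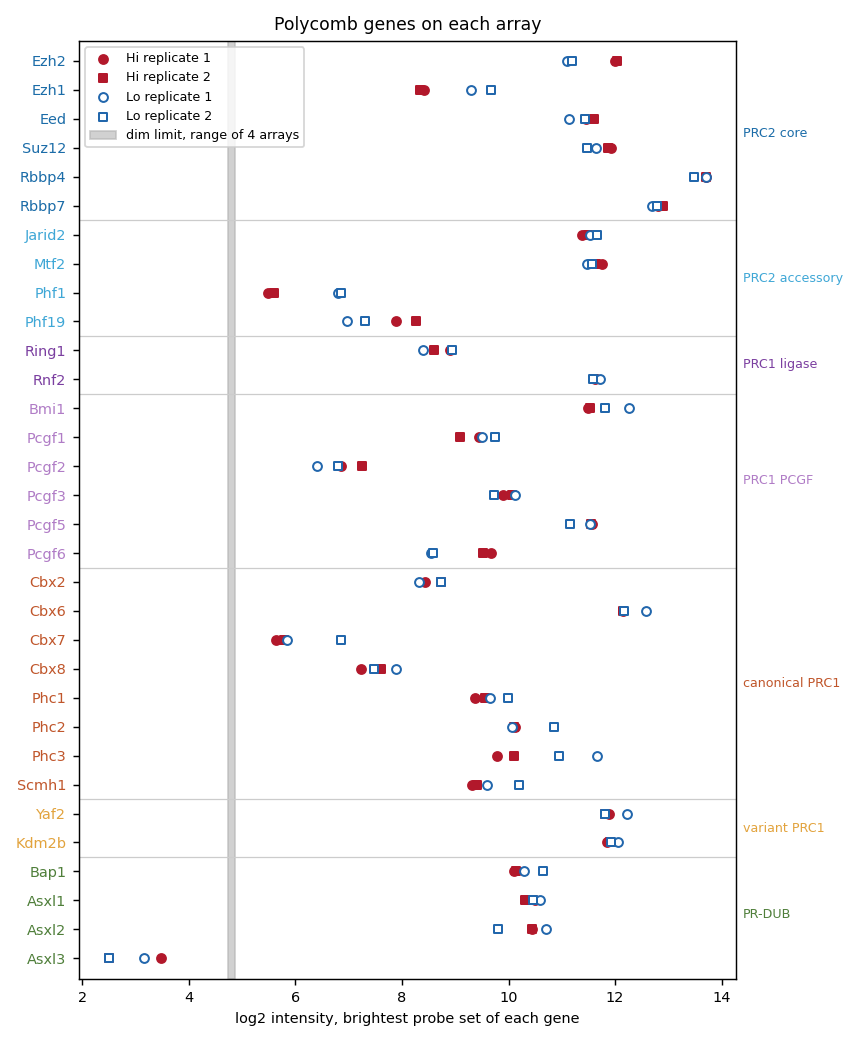
Log2 intensity of the brightest probe set of 32 Polycomb genes (rows, coloured by complex) on the 2 Hi arrays (filled) and the 2 Lo arrays (open), with circles for replicate 1 and squares for replicate 2; the grey band is the range of the dim limit. Ezh2, Phf19 and Pcgf6 lie to the right in Hi, Ezh1, Phf1 and Phc3 to the left, and Asxl3 lies below the dim limit on all 4 arrays.

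In 9 member genes the Hi arrays were above the Lo arrays without overlap, and in 12 they were below. Over all genes these shares were 30% and 25.4%, and in either direction 55.4% against 65.6% of the members. By probe set, 30 of 84 were above and 22 below without overlap (61.9%), against 29.3% and 22% of all probe sets (51.3%). Leaving out an array can only keep or raise the gene counts, since fewer arrays then have to separate. They reached 19 lower genes without Lo replicate 2 and 14 higher genes without Lo replicate 1. No share over all genes was counted there, so nothing is read from these rises. The median difference of the 32 genes was -0.08, against 0.03 over all genes, and it became 0.02 once the arrays had been shifted to 1 median and 0.07 when each gene's probe sets were averaged. As a whole the module therefore had no common direction.

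**Figure D2:**
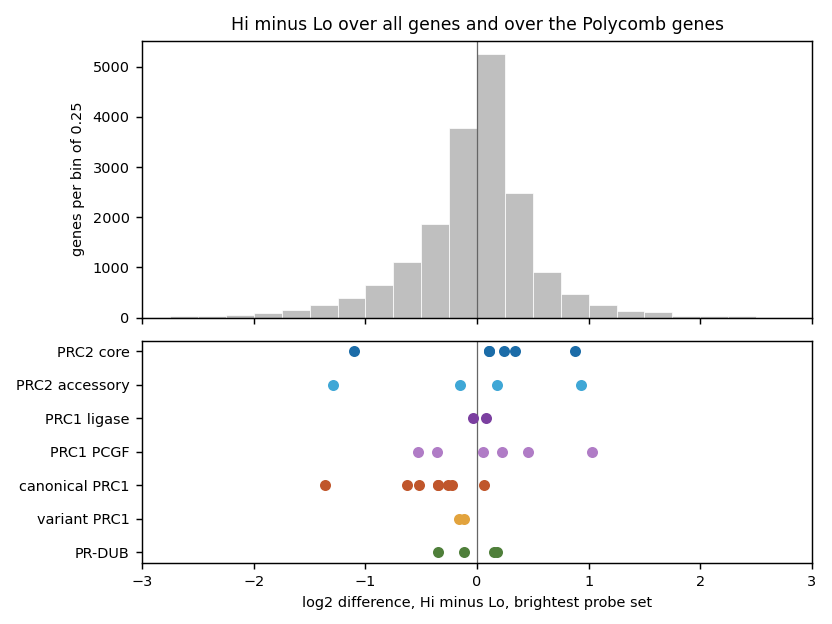
Upper panel, number of genes per bin of the log2 difference, Hi minus Lo, over 18193 genes by their brightest probe set; lower panel, the same difference for each Polycomb gene, 1 dot per gene, by complex. The horizontal axis is limited to -3 to 3. The members span -1.36 to 1.03 around a median of -0.08, while all genes reach from -4.81 to 4.92 around a median of 0.03.

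In the core of PRC2 the catalytic paralogues differed in opposite directions. Ezh2, the catalytic subunit known from dividing cells, stood at 12.00 and 12.03 on the Hi arrays and at 11.09 and 11.19 on the Lo arrays. Both Hi arrays were above both Lo arrays, and the replicates of each group lay close together. The difference was 0.88 ± 0.13 (SE), 1.84-fold higher in Hi, with a limma adjusted p of 0.107. Ezh1, the paralogue known from resting and mature cells, stood at 8.42 and 8.33 in Hi and at 9.29 and 9.67 in Lo. Here both Hi arrays were below both Lo arrays, by -1.10 ± 0.19 (SE), 2.15-fold lower in Hi, with a limma adjusted p of 0.118. A further Ezh1 probe set had 7.94 and 8.32 in Hi and 8.70 and 9.21 in Lo, again without overlap and lower in Hi. Its difference was -0.82 ± 0.26 (SE). The other 2 Ezh1 probe sets were dim on all 4 arrays, and 1 of them differed by 1.15, so the mean of all 4 gave only -0.27 ± 0.13 (SE).

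The within-array difference Ezh2 minus Ezh1 was 1.98 greater in Hi than in Lo on the log2 scale, and the groups did not overlap in it. The exact permutation test over the arrays, two-sided, gave p = 0.333, the smallest that 2 arrays against 2 allow, and 0.666 adjusted over the 14 pairs compared. Genes of the cell cycle differed between the groups as well. Of a list of 18 measured cell cycle genes, 16 were higher in Hi at an unadjusted limma p under 0.05 and 0 lower, and their summed linear intensity reached 84600 and 84300 in Hi against 51900 and 49600 in Lo. Mybl2 and E2f1, which encode transcription factors of dividing cells, differed by 2.13 ± 0.14 and 1.94 ± 0.13 (SE). Their part in the Ezh2 difference was not tested.

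The scaffold subunit Suz12, which holds PRC2 together, was higher in Hi with all 6 of its probe sets, and in each of the 6 the groups did not overlap. The brightest stood at 11.93 and 11.86 in Hi and 11.64 and 11.46 in Lo, a difference of 0.34 ± 0.15 (SE) with a limma adjusted p of 0.333. The other 5 differed by 0.38 to 0.88, and 4 of the 6 had an unadjusted limma p under 0.05. Probe sets of 1 gene read the same RNA and are not replicates. Eed, the subunit that reads the mark PRC2 leaves, differed by 0.25 ± 0.18 (SE), with a second probe set dim on all 4 arrays.

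The histone-binding subunits Rbbp4 and Rbbp7 also serve in other chromatin complexes. Rbbp7 differed by 0.11 ± 0.14 and 0.04 ± 0.13 (SE) in its 2 probe sets, each smaller than its SE. For Rbbp4 the reading depended on the probe set. The brightest stood at 13.70 and 13.70 in Hi and 13.71 and 13.48 in Lo and did not separate the groups, with a difference of 0.11 ± 0.15 (SE). Another had 12.06 and 11.99 in Hi, 11.36 in Lo replicate 1 and 6.44 in Lo replicate 2, and 1 more had 9.64 and 9.20 in Hi against 8.42 and 4.96. Lo replicate 2 thus stood far below the other 3 arrays in both, and their differences of 3.13 ± 1.75 and 2.73 ± 1.24 (SE) rest largely on that array. The fourth had 8.30 and 8.35 in Hi and 6.85 and 7.50 in Lo, a difference of 1.15 ± 0.27 (SE) without overlap.

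Promoter letters of the PRC2 genes were read from RefSeq windows on GRCm38.p6 that run from 250 bases before to 50 after a start site. Of the 33 listed genes 28 matched, with 38 windows. The windows were searched on both strands for the E2F motif as TTTCCCGC, TTTGGCGC, TTTCGCGC or TTTGCCGC, a choice made after the differences were seen. E2F factors are known to drive genes of the cell cycle. The motif stood in windows of 3 member genes, Ezh2, Phf19 and Suz12, which is 7.89% of the member windows against 2.26% of all 32851 windows. These 3 genes differed by 0.88, 0.94 and 0.34. The windows of Pcgf6 and Pcgf2 held no such match, although these genes were also higher in Hi, by 1.03 and 0.46. A part of E2F factors in the differences was not tested. The matches describe letters and not binding. The motif is shown in capitals with its neighbours for Ezh2 (chr6:47595009-47595038, minus strand) and Phf19 (chr2:34914166-34914195, minus strand), and within the stretch before the start for Suz12 (chr11:79992856-79993105, plus strand). The stretch before Ezh1 (chr11:101226464-101226713, minus strand), a gene that differed the other way, is set beside them and holds neither this motif nor the E-box. Most member genes lack the motif as well, so nothing is read from its absence before Ezh1.
Ezh2: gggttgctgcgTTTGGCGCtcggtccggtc
Phf19: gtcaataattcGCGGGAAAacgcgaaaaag
Suz12: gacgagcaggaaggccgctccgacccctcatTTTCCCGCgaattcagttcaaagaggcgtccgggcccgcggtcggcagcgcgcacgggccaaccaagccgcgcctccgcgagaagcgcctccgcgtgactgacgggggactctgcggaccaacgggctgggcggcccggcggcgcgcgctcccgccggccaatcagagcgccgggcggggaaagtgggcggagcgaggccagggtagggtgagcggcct
Ezh1: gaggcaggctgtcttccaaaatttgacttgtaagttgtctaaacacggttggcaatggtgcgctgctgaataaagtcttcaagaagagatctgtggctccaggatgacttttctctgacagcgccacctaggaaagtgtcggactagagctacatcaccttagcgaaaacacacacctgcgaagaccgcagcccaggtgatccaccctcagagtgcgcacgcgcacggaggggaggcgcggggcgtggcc

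The Polycomb-like proteins Phf1, Mtf2 and Phf19 are alternative partners that bring PRC2 to chromatin, and their genes also differed in opposite directions. Phf1 stood at 5.48 and 5.60 in Hi and at 6.81 and 6.86 in Lo, on its single probe set. Both Hi arrays were well below both Lo arrays, and the replicates lay close together. The difference of -1.29 ± 0.14 (SE), 2.45-fold lower in Hi, had the smallest limma adjusted p among the members, 0.0906. Phf1 was the only member called in a fit over the mean of all probe sets of each gene (limma adjusted p = 0.0342), where 1.39% of genes were called higher and 1.52% lower. It was likewise the only member called in a fit over 1 probe set per gene (limma adjusted p = 0.0441), where 1.04% were called higher and 1.18% lower. The Phf1 probe set is faint, in Hi not far above the dim limit. With a variance trend its SE was 0.24 and its limma adjusted p 0.107, and with an offset of 16 its difference was -1.06.

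Phf19 stood at 7.89 and 8.26 in Hi and at 6.97 and 7.31 in Lo. The groups did not overlap, and the difference was 0.94 ± 0.22 (SE), 1.91-fold higher in Hi, with a limma adjusted p of 0.168. Its second probe set, at 5.06 and 5.19 in Hi and 5.04 and 5.14 in Lo, lay just above the dim limit and did not separate the groups. Mtf2 stood at 11.75 and 11.65 in Hi and 11.48 and 11.57 in Lo, a difference of 0.17 ± 0.14 (SE). Of its 5 other probe sets, 1 with 9.86 and 9.74 in Hi and 9.18 and 8.65 in Lo differed by 0.89 ± 0.23 (SE), while the dimmest 2 differed by -0.08 and -0.12. The within-array difference from Phf1 was greater in Hi by 2.23 for Phf19 and by 1.47 for Mtf2 (exact permutation p = 0.333 each, adjusted 0.666). Jarid2, an accessory subunit that helps place PRC2, stood at 11.38 and 11.50 in Hi and 11.53 and 11.66 in Lo. The difference was -0.16 ± 0.14 (SE), close in size to its error although the groups did not overlap, and its other probe sets differed by -0.33 and 0.51.

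**Figure D3:**
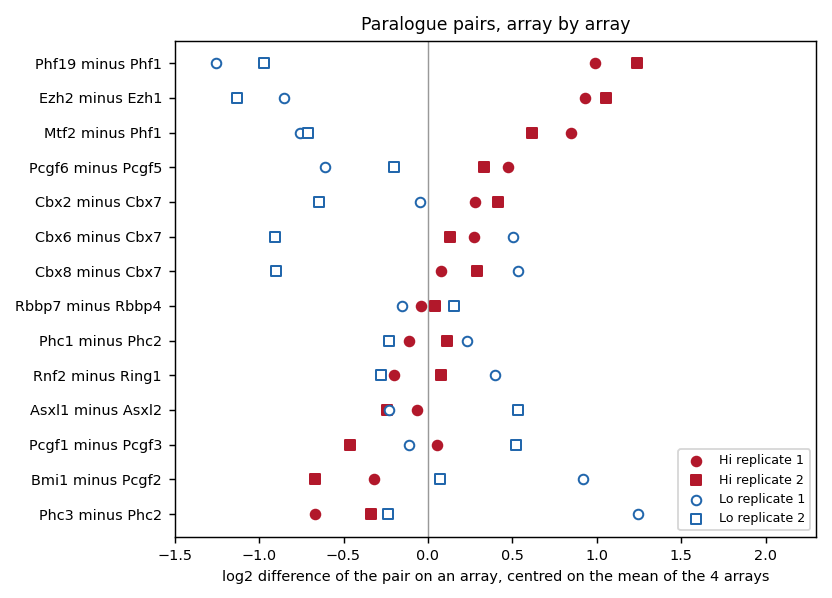
For each of 14 paralogue pairs, the log2 intensity of the first gene minus that of the second on each array, centred on the mean of the 4 arrays, with Hi filled and Lo open. In 7 of the 14 pairs the Hi and Lo arrays do not overlap. Of single genes 55.4% do not, but no share over other gene pairs was counted, and some genes stand in several pairs. The widest are Phf19 minus Phf1 with a Hi minus Lo difference of 2.23 and Ezh2 minus Ezh1 with 1.98.

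In PRC1 the ligase genes had overlapping groups by their brightest probe sets. Ring1 stood at 8.90 and 8.60 in Hi and at 8.39 and 8.95 in Lo, so the groups overlapped, and the difference was 0.08 ± 0.26 (SE). Rnf2, the ligase with the larger part in most cells, stood at 11.62 and 11.60 in Hi and 11.71 and 11.59 in Lo, a difference of -0.04 ± 0.14 (SE). Its other 4 probe sets were 0.29 to 0.67 higher in Hi without overlap, at unadjusted limma p-values from 0.0591 to 0.189. Those with means of 5.57, 5.36 and 5.07 lay near the dim limit. The last of these, which gave 0.67, was under it in Lo replicate 2, at 4.66. The mean of all 5 Rnf2 probe sets gave 0.34 ± 0.16 (SE).

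The Pcgf proteins define the kinds of PRC1. Pcgf6, which marks a variant complex that also contains Max and Mga, stood at 9.67 and 9.51 in Hi and at 8.54 and 8.58 in Lo. The groups did not overlap, and the difference of 1.03 ± 0.14 (SE), 2.05-fold higher in Hi, had a limma adjusted p of 0.0981. A second probe set had 6.83 and 7.12 in Hi and 4.93 and 5.37 in Lo, 3.54-fold higher in Hi with a limma adjusted p of 0.0949. The dimmest was under the dim limit on 3 arrays, at 2.61 and 3.004 in Hi and 2.63 in Lo replicate 1, but 4.86 in Lo replicate 2. It lowered the mean over the 3 probe sets to 0.64 ± 0.33 (SE). Pcgf6 minus Pcgf5 within an array was 0.81 greater in Hi (exact permutation p = 0.333, adjusted 0.666). Mga, whose product sits in the same complex, was lower in Hi by -0.39 ± 0.14 (SE).

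Bmi1, the Pcgf protein of canonical PRC1 named above, stood at 11.49 and 11.54 in Hi and at 12.26 and 11.81 in Lo. Both Hi arrays were lower. The difference of -0.52 ± 0.21 (SE) is a factor of 1.44, at an adjusted p of 0.31 by limma. Its other probe set had 10.54 and 10.54 in Hi and 11.72 and 10.91 in Lo, a difference of -0.77 ± 0.32 (SE). In both, the Lo replicates lay further apart than the Hi replicates, and the first difference was -0.75 when Lo replicate 2 was left out and -0.30 when Lo replicate 1 was. Pcgf2, the closest paralogue of Bmi1, differed by 0.46 ± 0.24 and 0.41 ± 0.16 (SE) in its 2 probe sets, both without overlap. Bmi1 minus Pcgf2 within an array had a Hi minus Lo difference of -0.99, with both Hi arrays below both Lo arrays (exact permutation p = 0.333, adjusted 0.666), and of -0.56 without Lo replicate 1.

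The remaining Pcgf genes belong to variant complexes. Pcgf1 differed by -0.36 ± 0.20 (SE). Pcgf3 stood at 9.90 and 10.06 in Hi and 10.13 and 9.73 in Lo and overlapped, with a difference of 0.05 ± 0.20 (SE). Pcgf5 stood at 11.57 and 11.55 in Hi and 11.52 and 11.15 in Lo, a difference of 0.23 ± 0.18 (SE). A dimmer Pcgf5 probe set had 6.72 and 6.68 in Hi and 7.60 and 7.81 in Lo, lower in Hi by -1.01 ± 0.15 (SE) at an unadjusted limma p of 0.00253 (adjusted 0.103). The probe sets of Pcgf5 thus disagree in sign, and their mean gave -0.28 ± 0.12 (SE).

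**Figure D4:**
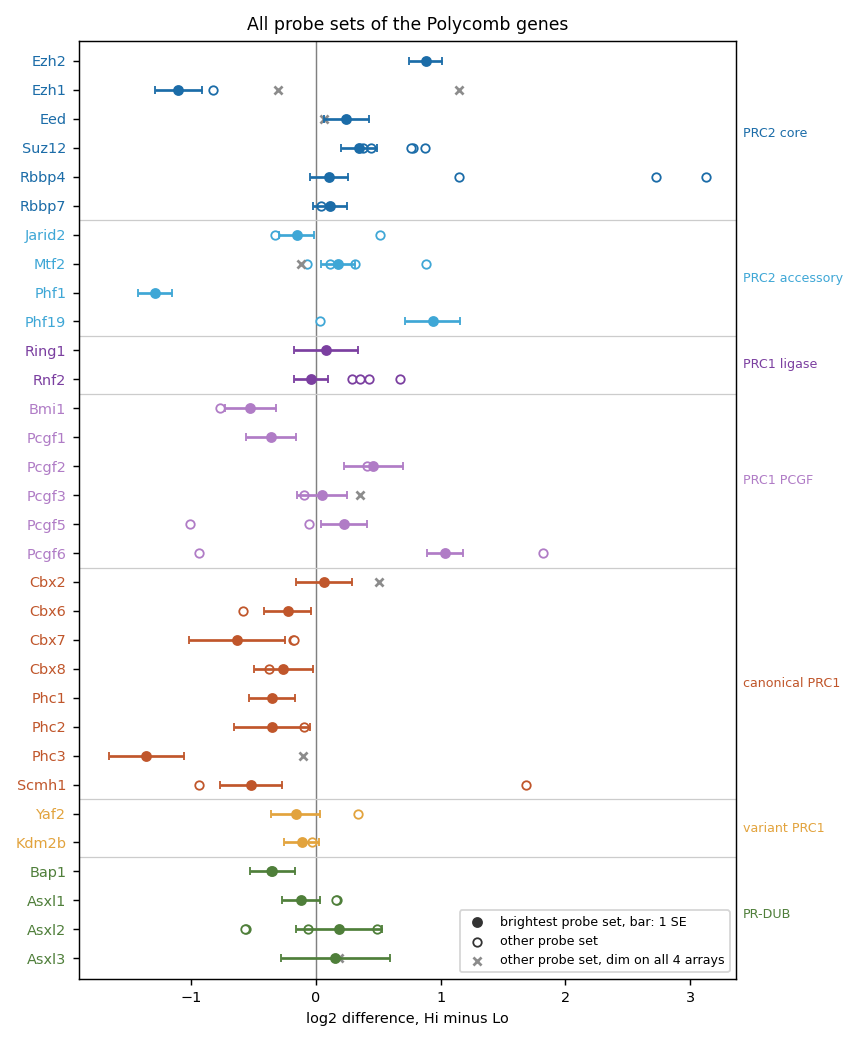
Log2 difference, Hi minus Lo, of all 84 probe sets of the 32 genes: filled dots with a bar of 1 SE for the brightest probe set, open dots for the others, or crosses where these were dim on all 4 arrays. The 6 Suz12 probe sets all lie right of 0, and the Rbbp4 probe sets spread from 0.11 to 3.13. Of 27 genes with more than 1 probe set, 11 have probe sets on both sides, among them Ezh1, Pcgf5, Pcgf6 and Scmh1.

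Among the subunits of canonical PRC1 other than Bmi1 and Pcgf2, 7 of 8 genes had a negative difference, with a median of -0.35. Over all genes 8445 of 18193 had a negative difference. Of the 8 only Phc3 had an unadjusted limma p under 0.05, which is 12.5% against 20.2% of all genes. The count of negative differences was 7 of 8 after the arrays were shifted to 1 median and after cyclic loess as well. It was 6 of 8 with the mean of all probe sets or without Lo replicate 2. In 5 of the 8 both Hi arrays lay below both Lo arrays, where 25.4% of all genes did. After the shift to 1 median this held in 3 of 8, with no share over all genes counted for that setting. Phc3 differed most. Phc proteins polymerise through a shared domain and draw PRC1 complexes together. Phc3 stood at 9.79 and 10.09 in Hi and at 11.65 and 10.95 in Lo. The groups did not overlap, and the difference was -1.36 ± 0.30 (SE), 2.56-fold lower in Hi, with a limma adjusted p of 0.155. Leaving out Lo replicate 2 gave -1.71, leaving out Lo replicate 1 gave -1.01, and a second probe set was dim on all 4 arrays. Phc1 and Phc2 differed by -0.35 ± 0.19 and -0.35 ± 0.31 (SE). Leaving out single Lo arrays gave -0.51 and -0.19 for Phc1, and -0.74 and 0.04 for Phc2, whose sign turned without Lo replicate 2. Phc3 minus Phc2 within an array had a Hi minus Lo difference of -1.01 (exact permutation p = 0.333, adjusted 0.666). Leaving out Lo replicate 1 reduced this to -0.27, and leaving out Lo replicate 2 gave -1.75.

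Cbx proteins read the histone mark left by PRC2. Cbx7 stood at 5.63 and 5.79 in Hi and at 5.84 and 6.85 in Lo, a difference of -0.63 ± 0.39 (SE) that was -0.12 without Lo replicate 2. Cbx6 differed by -0.23 ± 0.19 (SE), and its second probe set, with 9.05 and 9.16 in Hi and 9.76 and 9.61 in Lo, by -0.59 ± 0.14 (SE) at an unadjusted limma p of 0.0156 (adjusted 0.176). Cbx8 differed by -0.26 ± 0.24 and Cbx2 by 0.07 ± 0.22 (SE), each with overlapping groups. Apart from the second Cbx6 probe set, no probe set of Cbx2, Cbx6, Cbx7 or Cbx8 had an unadjusted limma p under 0.05.

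Scmh1, a further canonical subunit, stood at 9.32 and 9.41 in Hi and at 9.59 and 10.19 in Lo, a difference of -0.52 ± 0.25 (SE). A second Scmh1 probe set had 9.95 in Hi replicate 1 against 5.65 in Hi replicate 2, 5.98 in Lo replicate 1 and 6.26 in Lo replicate 2. That array stood alone, and the probe set's difference of 1.69 ± 1.53 (SE) rests on it. The third had 6.87 and 5.91 in Hi and 7.46 and 7.20 in Lo, a difference of -0.94 ± 0.37 (SE).

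The E-box CACGTG, the motif bound by Myc with its partner Max, was searched in the same windows on both strands, again after the differences were seen. It stood in 9 of the 38 member windows (23.7%), each of another gene, against 7.15% of all windows. Of these 9 genes 3 had a positive and 6 a negative difference, from -1.36 for Phc3 to 0.46 for Pcgf2. Genes with the letters therefore lay on both sides. The others were Asxl2, Bap1, Bmi1, Cbx6, Cbx8, Phc2 and Rbbp4, and the windows of Ezh2, Ezh1, Phf1, Phf19 and Pcgf6 held no such match. The stretches before the start are shown for Bmi1 (chr2:18676768-18677017, plus strand) and Phc3 (chr3:30969480-30969665, minus strand), 2 genes that were lower in Hi, with the E-box in capitals.
Bmi1: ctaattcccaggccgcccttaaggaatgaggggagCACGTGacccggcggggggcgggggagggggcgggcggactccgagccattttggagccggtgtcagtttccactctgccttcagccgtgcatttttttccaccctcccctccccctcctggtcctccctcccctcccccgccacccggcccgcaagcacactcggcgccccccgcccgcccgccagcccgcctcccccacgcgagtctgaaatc
Phc3: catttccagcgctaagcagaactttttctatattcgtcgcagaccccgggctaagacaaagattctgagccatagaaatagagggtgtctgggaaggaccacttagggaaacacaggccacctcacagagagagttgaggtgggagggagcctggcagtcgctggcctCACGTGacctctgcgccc

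In variant PRC1, Kdm2b, which binds unmethylated CpG islands, differed by -0.11 ± 0.14 (SE). Yaf2, the paralogue of Rybp, stood at 11.89 and 11.81 in Hi and 12.22 and 11.81 in Lo, a difference of -0.16 ± 0.20 (SE). Its other probe set, at 9.25 and 9.30 in Hi and 9.27 and 8.61 in Lo, differed by 0.33 ± 0.27 (SE). Each of the differences of the brightest probe sets was smaller than its SE.

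In PR-DUB, the deubiquitinase gene Bap1 was lower on both Hi arrays in both of its probe sets, by -0.35 ± 0.18 and -0.36 ± 0.13 (SE), with limma adjusted p-values of 0.406 and 0.282. Asxl1, whose product activates Bap1, stood at 10.49 and 10.31 in Hi and 10.59 and 10.45 in Lo, a difference of -0.12 ± 0.15 (SE). Its other 2 probe sets differed by 0.17 and 0.16. Asxl2 stood at 10.43 and 10.43 in Hi and at 10.70 and 9.80 in Lo, so Lo lay on both sides of Hi. A dimmer Asxl2 probe set had 5.76 and 5.76 in Hi and 6.31 and 6.36 in Lo, a difference of -0.57 ± 0.13 (SE) at an unadjusted limma p of 0.0118 (adjusted 0.16), while another differed by 0.49. Both probe sets of Asxl3 were dim on all 4 arrays, so only an upper limit of its level was measured.

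**Figure D5:**
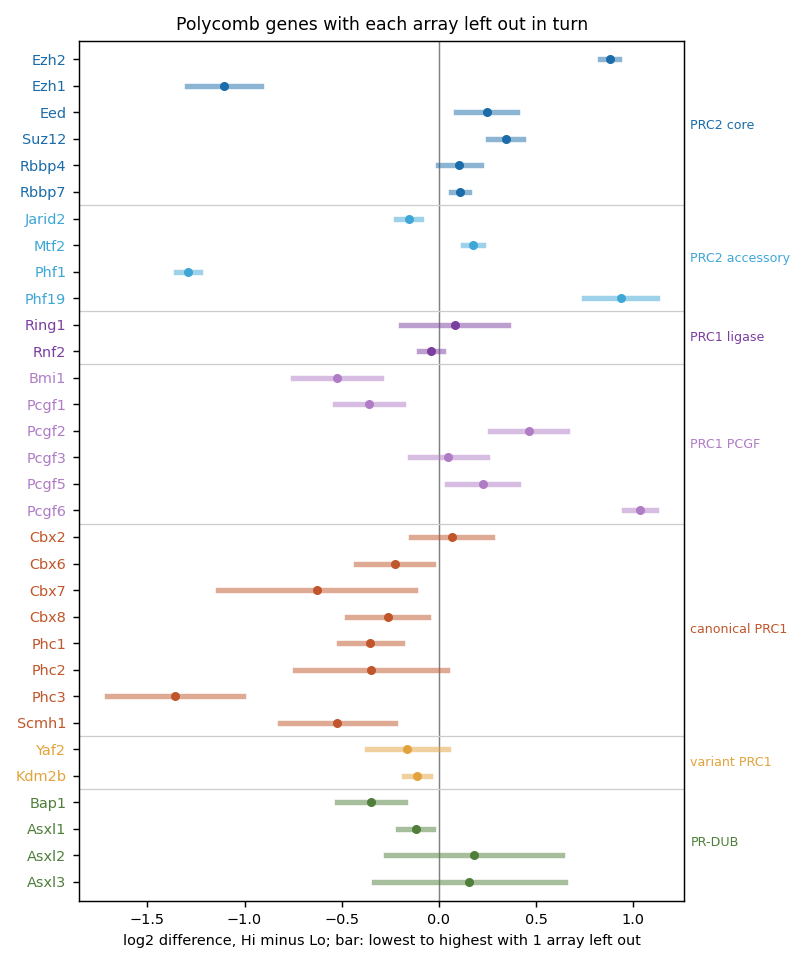
Log2 difference, Hi minus Lo, of the brightest probe set of each Polycomb gene (dot) with the range of the difference when each of the 4 arrays was left out in turn (bar). The bars of Ezh2, Ezh1, Phf1, Phf19, Pcgf6 and Phc3 stay clear of 0, those of Phf1 between -1.35 and -1.23 and of Ezh2 between 0.83 and 0.93, while 9 of the 32 bars include 0.

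Further genes that act with or against Polycomb proteins were read from lists. Of 35 measured other Polycomb genes, 4 were higher and 3 lower in Hi at an unadjusted limma p under 0.05, with a median difference of 0.08. In either direction this was 20% of the list against 20.2% of all genes, which is the background share. The smallest p-values belonged to Cbx3 (0.79 ± 0.14, SE), which sits in the Pcgf6 complex, and the Polycomb repressor gene Sfmbt1 (1.29 ± 0.26) on the higher side. On the lower side they belonged to Fbrs (-0.82 ± 0.21), a partner of variant PRC1, and Scml4 (-1.09 ± 0.34). Of 11 measured opposing genes 0 were higher and 2 lower by that rule, 18.2% of the list and again near the background. Kmt2a, a histone methyltransferase that keeps Hox genes active, differed by -1.09 ± 0.21 (SE), 2.13-fold lower in Hi, and the H2A deubiquitinase gene Mysm1 by -0.74 ± 0.17 (SE). The demethylase gene Kdm6a, which removes the PRC2 mark, had a difference of 0.45 ± 0.26 (SE) and the deubiquitinase gene Usp16 of 0.20 ± 0.16 (SE). Neither list had a member past the adjusted threshold.

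Of 17 known targets of Polycomb silencing, 1 was higher and 3 lower at an unadjusted limma p under 0.05, and 9 were dim on all 4 arrays. The share of 23.5% was near the 20.2% of all genes. The dim targets included Cdkn2a and Cdkn2b, cell cycle inhibitors that Bmi1 is known to repress, at most 3.48 and 3.93 on any array. The cyclin-dependent kinase inhibitor gene Cdkn1c stood at 5.47 and 6.06 in Hi and 7.73 and 7.69 in Lo, lower in Hi by -1.94 ± 0.25 (SE) with a limma adjusted p of 0.0956. Hoxa9, a homeobox gene of stem and progenitor cells, differed by -0.69 ± 0.15 (SE). Nkx2-5, the higher one at 0.45 ± 0.14 (SE), and Tbx5 at 0.33 ± 0.16 (SE) were dim on all 4 arrays.

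The identity and quality of the samples bear on these values. Kit, the gene of the sorted marker c-Kit, stood between 11.39 and 11.95 on the 4 arrays. Ly6a, the gene of the other sorted marker Sca1, had no probe set annotated to it alone and was not checked. Of 7 listed LSK marker genes 6 were measured, and all 6 were above the dim limit on every array. Procr and Slamf1, which mark stem cells within the LSK fraction, were lower in Hi by -2.00 ± 0.17 and -1.68 ± 0.53 (SE). Cd48, a marker of more advanced progenitors, was higher by 0.74 ± 0.19 (SE). Each of these had an unadjusted limma p under 0.05, and none passed the adjusted threshold. The other 3 measured LSK markers had an unadjusted limma p above 0.05. Kit differed by -0.27 ± 0.20, Flt3 by -0.15 ± 0.18 and Cd34 by 0.11 ± 0.13 (SE). Markers of maturing lineages differed between the groups: the summed linear intensity of 5 measured erythroid markers was 10800 and 12600 in Hi against 1730 and 2340 in Lo, and that of 6 granulocyte and monocyte markers 42700 and 38000 against 22400 and 18000. Of these 11 genes 6 were higher and 0 lower at an unadjusted limma p under 0.05, and the erythroid markers Hba-a1 and Alas2 were dim on every array. The sum of 3 mast cell and basophil markers was 2940 and 3260 in Hi against 1230 and 1370 in Lo, with Mcpt8 higher by 2.49 ± 0.34 (SE). For 4 megakaryocyte markers it was 5830 and 5110 against 3680 and 4390. For 2 natural killer cell markers it was 7860 and 7300 against 5790 and 4800. Of the megakaryocyte markers 3 had a positive difference, while Gp9 was lower in Hi by -0.64 ± 0.17 (SE). The 2 natural killer cell markers went opposite ways, Nkg7 by 0.55 ± 0.17 and Ncr1, dim in Hi replicate 1, by -1.56 ± 0.57 (SE). The summed B cell markers lay between 647 and 840 with overlapping groups. The summed markers of T cells lay between 426 and 612 and those of stroma and endothelium between 150 and 198. Of 4 T cell markers 3 had a negative and 1 a positive difference, with Cd8a lower in Hi by -1.185 ± 0.185 (SE). For the Gapdh control, the log2 ratio of the 3′ to the 5′ probe set lay at 0.63 and 0.66 on the Hi arrays and at 0.74 and 0.78 on the Lo arrays. The same ratio for Actb was 0.60 and 0.55 in Hi, 0.84 in Lo replicate 1 and 0.57 in Lo replicate 2, so the groups overlapped. The part of stem cell markers, lineage markers and of RNA quality in the Polycomb differences was not tested.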

How the data were processed

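LSK RNA (5 ng per array) was amplified and labelled with biotin for Affymetrix mouse arrays, per the labels' protocols. The authors deposited 1 intensity per probe set and array, made with RMA per the submitters' processing notes, which as given here name no version. The deposited values span 2.957 to 22121.7 and were read as a linear scale. They were log2-transformed with no offset. Because RMA gives all arrays nearly the same distribution, these values cannot show whether cells of a group held more RNA in total.

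Of 45101 probe sets 64 controls were left out. The annotation gave 34945 probe sets 1 symbol, 932 several and 9160 none, and 34741 matched the RefSeq table of GRCm38.p6 by Entrez identifier. A gene was represented by its brightest probe set on average. Hi minus Lo was fitted by lmFit and eBayes (limma 3.58.1, R 4.3.3, two-sided, no block), with 2 residual degrees of freedom and 1.976 from the prior, and adjusted by Benjamini-Hochberg over 45037 probe sets. The dim limit is the brightest of 27 controls for bacterial transcripts on each array. With 2 arrays per group, their number limits the precision. Of these steps only the limma fit was tested on simulated data.

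All members with a probe set of their own are named. Every array's value is given for those with an unadjusted p under 0.05 or with probe sets of both signs, and for Ezh1, Ezh2, Bmi1, Ring1 and Rnf2. The 2 genes per direction with the smallest unadjusted p are named from the further lists, and all else was chosen after values were seen. The members and lists were chosen with earlier results of these data known. Promoter stretches are given on the gene's strand and end at the outermost annotated start of the gene, and RefSeq windows of 5 listed genes were not used here.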

Additional observations from a re-analysis of the deposited data

How the results depend on the processing

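The alternatives were a shift of the arrays to 1 median, cyclic loess, each array left out, the replicate number as a block, averaging a gene's probe sets, 1 probe set per gene, a dim filter, a variance trend, the ordinary test, and an offset of 16.

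Over 13 alternatives 19 of the 32 genes kept their sign, and 21 of 415 values had the other sign. Averaging a gene's probe sets gave 0.0689 for Asxl1, 0.0091 for Jarid2, -0.28 for Pcgf5, 0.34 for Rnf2, 0.075 for Scmh1, -0.10 for Asxl2 and 0.09 for Yaf2, each of the other sign, and the shift to 1 median gave 0.0554 for Rnf2. With an array left out, the lone array is assumed to vary like the other group. Leaving out arrays in the paralogue comparisons was chosen after seeing the data and gives values with no test. The Phf19 minus Phf1 value then ranged from 2.08 to 2.37 and that of Ezh2 minus Ezh1 from 1.84 to 2.13, while 6 of the 7 overlapping pairs took both signs.

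Averaged probe sets called 252 genes higher and 276 lower, 1 of them a member, and 1 probe set per gene called 190 and 214, again with 1 member. Fewer features were tested there, and the Phf1 SE was 0.129 and 0.133 against 0.137. The dim filter, which kept 27544 probe sets, called 0. The ordinary test called 1 probe set lower. With the shift to 1 median 7 members were lower without overlap, and of the probe sets with an unadjusted limma p under 0.05 63.5% were higher, against 50.4%. With 1 array left out, the members higher without overlap ranged from 10 to 14 and those lower from 13 to 19, and the members lower at an unadjusted limma p ranged from 2 to 7. The matching shares over all genes were not counted after the shift or with an array left out. Nothing particular about the members is therefore read from these member counts. The log2 medians of the arrays were 5.697 and 5.714 in Hi and 5.779 and 5.821 in Lo. The shift thus raised all differences by the same amount, and their median over all probe sets went from 0.0412 to 0.136. The cause of the changes in the number of calls was not tested.

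Replicate numbers are shared by the groups, but same-numbered arrays deviated together only weakly (r = 0.072 across probe sets, which are not independent). With the replicate block limma called 0 probe sets, and of the members 3 were higher and 3 lower before adjustment, the same counts as without the block.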
